A study of Mus musculus with 15 samples.

Results

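The genes described here are those of the cytotoxic granule: granzymes Gzma, Gzmb, Gzmc, Gzmk and Gzmm, the pore former Prf1, the granule proteoglycan Srgn, and Nkg7, Lamp1 and Ctsw. They were chosen by symbol, and each symbol matched 1 gene of the GENCODE M21 annotation, so that 10 of the 55536 annotated genes in the count tables are members. OT-I cells are CD8+ T cells carrying a transgenic receptor for the SIINFEKL peptide of ovalbumin, and they had been transferred into C57BL/6J recipients. In the Ag group (5 libraries) recipients received the peptide with a rat IgG control, and in the Ag+Costim group (5 libraries) the peptide with agonist antibodies to OX40 and 4-1BB, receptors of the tumor necrosis factor receptor family. CD8+ T cells were sorted from spleen and lymph nodes on day 4 per the labels, while the methods give a slightly shorter time. Recipients kept their own CD8+ T cells, and the sort relied on congenic and receptor markers of the transferred cells. The colony's OT-I donors included Rag1-deficient or Rag2-deficient mice, and the labels do not say which donors were used, nor the age or sex behind a library. Naive OT-I cells (5 libraries) were not analysed here.

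Cytotoxic T cells store granzymes and perforin in secretory lysosomes and release them at the contact with a target cell. Perforin opens the target membrane, granzymes enter and cleave target proteins, and serglycin holds the positively charged granzymes inside the granule. Naive CD8+ T cells carry little granzyme, and effector cells gain it after priming. Most mouse granzyme genes lie in clusters, the Gzma and Gzmk genes on chromosome 13 and the Gzmb and Gzmc genes on chromosome 14.

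The libraries held 59.6 to 639 M estimated counts, which are derived from coverage and are not numbers of reads. The shallowest was Ag replicate 3. Genes with a count numbered 48058, 21779, 51778, 40441 and 20714 in Ag replicates 1 to 5, against 28727 to 30340 in Ag+Costim. Every Ag library thus lay outside the Ag+Costim range in this measure, also with Ag replicates 1 and 4 left out. The genes defining CD8+ T cells (Cd8a, Cd8b1, Cd3e, Cd3d and Trac) were high in every library, with a summed 2737 to 5363 CPM (estimated counts scaled to library size by the TMM method) in Ag and 3649 to 4437 CPM in Ag+Costim. In genes of naive T cells and of dividing cells, Ag replicates 1 and 4 stood apart from the other libraries. A list of 4 genes of naive T cells (Ccr7, Tcf7, Lef1 and Il7r) summed to 1646 CPM in Ag replicate 1 and 1834 CPM in Ag replicate 4, against at most 1113 CPM in any other library. The 5 genes of dividing cells (Mki67, Top2a, Ccnb1, Cdk1 and Birc5) summed to 358 and 378 CPM there, against at least 1573 CPM elsewhere. In these genes the libraries labelled Ag replicates 1 and 4 go against their label of antigen-stimulated cells, which was kept, so that each Ag mean includes them. Results that rest on these libraries are therefore given with and without them, and removing them was an alternative chosen after seeing the data.

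The levels of the granzymes split the Ag libraries, whereas perforin and serglycin did not follow that split. Gzmb, the granzyme that cleaves caspases and Bid after aspartate, stood at 8.28, 714, 349, 16.8 and 731 CPM in Ag replicates 1 to 5, and at 640, 677, 245, 502 and 588 CPM in Ag+Costim replicates 1 to 5. Ag replicates 1 and 4 were far below every other library, and the remaining Ag libraries lay within or just above the Ag+Costim range. Gzmb had a mean of 364 ± 355 CPM with Ag against 530 ± 172 CPM with Ag+Costim (both SD, n = 5), so that the group means differed by less than the spread in Ag. Its level in the most extreme Ag libraries differed by 88.3-fold, compared with 2.76-fold across Ag+Costim. In bulk RNA, fewer cells of a type and less RNA per cell cannot be told apart.

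Gzma, a granzyme with trypsin-like specificity, followed the same libraries. Its level was 7.39, 230, 185, 9.01 and 321 CPM in Ag replicates 1 to 5, and 167, 263, 118, 135 and 132 CPM in Ag+Costim. Gzmk, also trypsin-like, stood at 3.04, 211, 145, 4.28 and 290 CPM with Ag and 222, 251, 123, 150 and 189 CPM in Ag+Costim. Gzmm, the granzyme that prefers methionine and leucine, reached 3.85, 38.2, 32.9, 2.69 and 54.8 CPM with Ag and 36.5, 45, 34.4, 27.4 and 32.2 CPM in Ag+Costim. For these granzymes, Ag replicates 1 and 4 lay below all other libraries of either group, and the other Ag libraries overlapped Ag+Costim. Gzmk overlaps Esm1 on the opposite strand, and the library kit did not record strand, so reads of this pair could not be separated. Esm1 itself was at most 7.86 CPM.

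Gzmc, a further granzyme of the Gzmb cluster, was near the floor of these data, from 0.281 to 1.11 CPM with Ag and between 0.345 and 1.07 CPM in Ag+Costim. Its sequence is close to that of other genes in the cluster, and counts could be divided among them. Of 5 other granzymes of that cluster (Gzmd, Gzme, Gzmf, Gzmg and Gzmn), 1, Gzmf, passed the filter on low counts, with a mean of 0.172 ± 0.267 CPM for Ag against 0.118 ± 0.0575 CPM for Ag+Costim (both SD, n = 5).

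**Figure D1:**
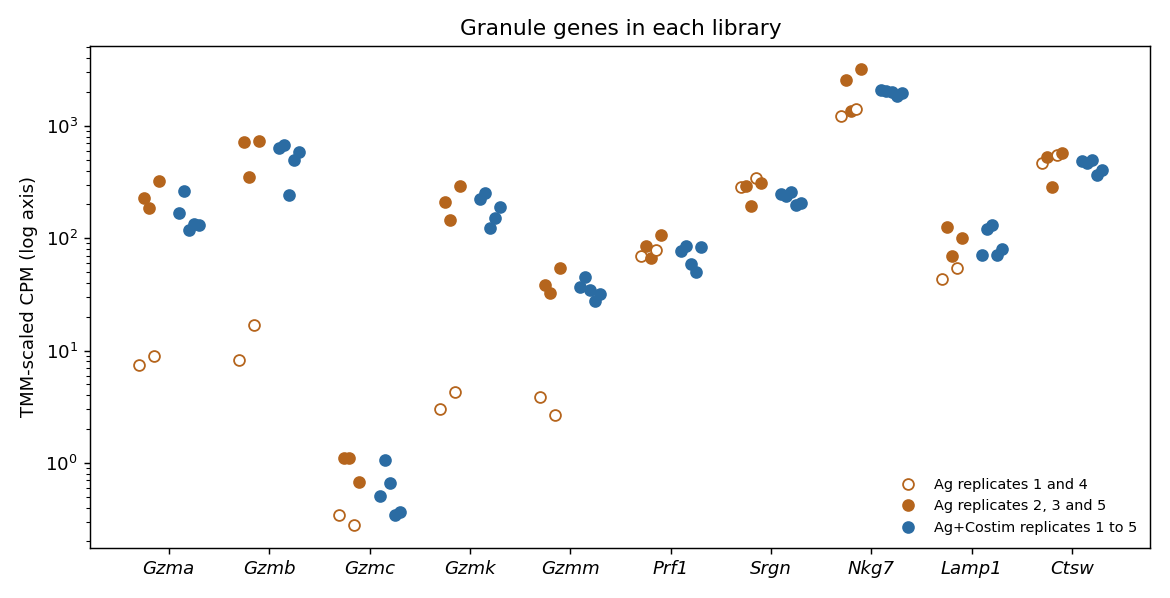
TMM-scaled CPM (log axis) of the 10 granule genes in each of the 10 libraries, with Ag replicates 1 and 4 as open circles. Gzma, Gzmb, Gzmk and Gzmm were low in these libraries (2.69 to 16.8 CPM), whereas Prf1 (69.7 and 79 CPM), Srgn, Nkg7 and Ctsw lay inside or close to the range of the other libraries and Lamp1 was lowest there (43.6 and 54.6 CPM).

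Prf1, which forms the pore, did not share the split. It stood at 69.7, 85.9, 67.4, 79 and 107 CPM in Ag replicates 1 to 5 and at 77, 85.4, 58.8, 50.1 and 84.4 CPM in Ag+Costim. Ag replicates 1 and 4 lay inside the range of the other Ag libraries, and the most extreme Ag libraries differed by 1.59-fold. Srgn, which encodes the proteoglycan serglycin, stood at 286, 294, 193, 341 and 313 CPM with Ag and at 246, 239, 258, 198 and 204 CPM in Ag+Costim. For Srgn, Ag replicate 3 alone lay below the Ag+Costim libraries and the other Ag libraries lay above them all.

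Nkg7, a granule membrane protein needed for exocytosis, stood at 1220, 2550, 1350, 1420 and 3230 CPM with Ag and at 2080, 2050, 2000, 1840 and 1980 CPM in Ag+Costim. The Ag libraries scattered on both sides of a narrow Ag+Costim range, with a coefficient of variation of 45.6% in Ag and 4.62% in Ag+Costim. Lamp1, a lysosomal membrane protein that appears on the surface after degranulation, stood at 43.6, 126, 69.9, 54.6 and 101 CPM with Ag and at 70.5, 122, 131, 71.3 and 79.6 CPM in Ag+Costim. For Lamp1, Ag replicates 1 and 4 lay below all other libraries, by less than for the granzymes, and the groups overlapped. Ctsw, a cysteine protease (cathepsin W) of cytotoxic lymphocytes, ranged from 288 to 573 CPM with Ag and from 366 to 494 CPM in Ag+Costim, with its lowest value in Ag replicate 3. Lamp1 overlaps Grtp1 and Ctsw overlaps Fibp on opposite strands, so these counts carry the same uncertainty, with Grtp1 at most 2.42 CPM and Fibp between 36.2 and 72.2 CPM.

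The ratio of granzyme to perforin made the split explicit. The level per length, that is, estimated transcript counts divided by transcript length, summed over a gene and scaled within each library to the same total as CPM, allows genes to be compared with each other. On this scale Gzmb was 0.199, 14, 8.47, 0.358 and 11.4 times Prf1 in Ag replicates 1 to 5, and 14.1, 13.4, 7, 16.9 and 11.8 times Prf1 in Ag+Costim. Perforin transcript thus exceeded that of Gzmb in Ag replicates 1 and 4 and was the lesser of the pair in the other 8 libraries. The sum of the 5 granzymes was 0.697 and 0.859 times Prf1 in Ag replicates 1 and 4, and between 18 and 31.6 times Prf1 elsewhere.

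**Figure D2:**
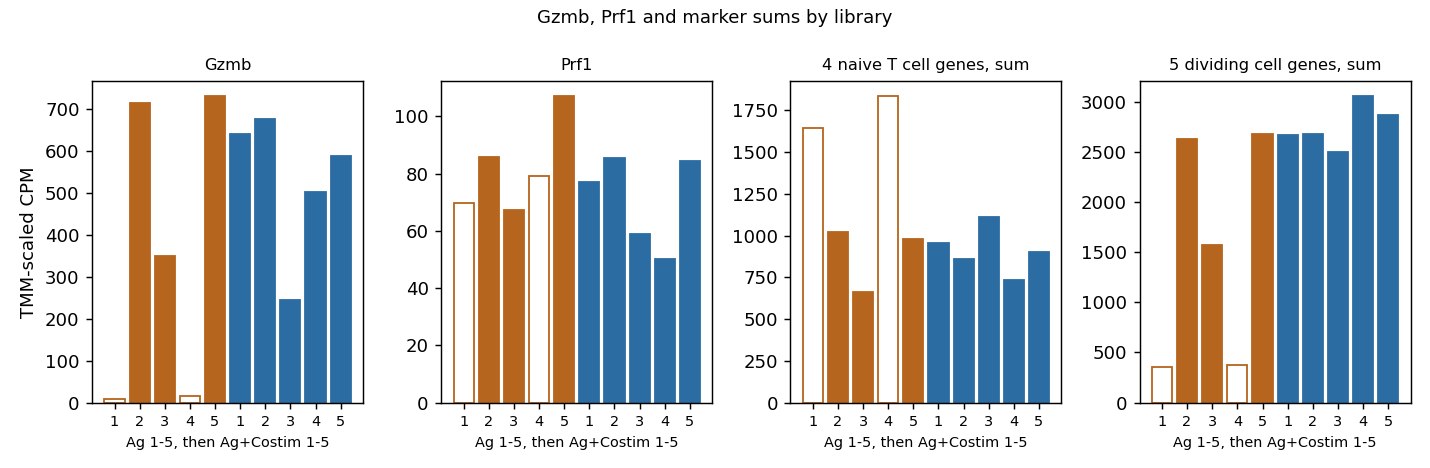
TMM-scaled CPM of Gzmb, of Prf1 and of the sums of 4 naive T cell genes and 5 dividing cell genes, 1 bar per library, with Ag replicates 1 and 4 as open bars. Gzmb was 8.28 and 16.8 CPM in these libraries, where the naive genes summed to 1646 and 1834 CPM and the dividing genes to 358 and 378 CPM, while Prf1 was 69.7 and 79 CPM.

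The mix of granzymes was described as each member's share of their summed level per length. Gzmb made up 41 ± 8.17% for Ag against 49 ± 6.56% for Ag+Costim, and Gzma 34.1 ± 5.63% against 24.9 ± 4.57% (all SD, n = 5). Gzmk made up 17.5 ± 4.19% in Ag and 22.1 ± 1.68% in Ag+Costim. These Ag means include replicates 1 and 4. In Ag replicates 2, 3 and 5 Gzmb made up 51.3, 40.2 and 43.5% and Gzma 26.7, 34.4 and 31.2%. Gzmk was at 13 and 13.2% in Ag replicates 1 and 4 and at 18.8, 21 and 21.7% in the other Ag libraries. The shares overlapped between the groups for all of the granzymes. In Ag replicate 1, where the summed granzyme level per length was lowest, Gzma was the largest part (41.7%) and Gzmm reached 14.9%.

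The RefSeq promoter table (GRCm38.p6) held a start for 9 of the members, Ctsw being without an entry. The 250 bases before the start are given for Gzmb (chr14:56262335-56262584, minus strand), Gzma (chr13:113100982-113101231, minus strand) and Gzmk (chr13:113180966-113181215, minus strand), which varied together between libraries, and for Prf1 (chr10:61297586-61297835, plus strand), which did not share that variation. Capitals mark letters matching a RUNX motif (TGTGGT), a T-box motif (TCACAC) or an AP-1 motif (TGANTCA) on either strand. The motifs were chosen after the levels had been seen.
Gzmb: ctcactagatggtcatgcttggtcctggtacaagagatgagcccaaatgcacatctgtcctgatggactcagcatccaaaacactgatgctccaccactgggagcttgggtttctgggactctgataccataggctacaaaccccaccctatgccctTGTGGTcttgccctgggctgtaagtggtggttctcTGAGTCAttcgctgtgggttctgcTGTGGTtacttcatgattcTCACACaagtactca
Gzma: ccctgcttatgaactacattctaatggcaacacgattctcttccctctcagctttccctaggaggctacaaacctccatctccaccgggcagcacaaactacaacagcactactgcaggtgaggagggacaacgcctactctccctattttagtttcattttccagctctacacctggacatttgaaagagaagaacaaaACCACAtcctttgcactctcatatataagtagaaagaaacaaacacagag
Gzmk: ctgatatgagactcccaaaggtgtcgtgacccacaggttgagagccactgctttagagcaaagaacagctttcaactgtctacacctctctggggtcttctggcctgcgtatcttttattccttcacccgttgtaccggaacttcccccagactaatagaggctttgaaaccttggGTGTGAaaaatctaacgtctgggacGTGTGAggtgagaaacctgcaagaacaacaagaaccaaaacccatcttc
Prf1: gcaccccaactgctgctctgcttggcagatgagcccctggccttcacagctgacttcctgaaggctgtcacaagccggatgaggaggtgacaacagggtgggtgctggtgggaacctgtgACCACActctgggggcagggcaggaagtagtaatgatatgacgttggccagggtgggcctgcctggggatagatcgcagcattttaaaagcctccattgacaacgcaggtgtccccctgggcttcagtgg

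The Gzmb stretch held the RUNX letters at 93 and 34 bases before the start (first base of the match), the AP-1 letters at 58 and the T-box letters at 15. Gzma held the RUNX letters at 50 bases before the start, Gzmk the T-box letters at 74 and 49, and Prf1 the RUNX letters at 130. No matches overlapped. Over all 32851 promoter windows of the same length, 14% held the RUNX letters, 12.3% the T-box letters and 6.7% the AP-1 letters. A match describes letters only, and RUNX letters stood before Prf1 as well as before Gzmb and Gzma. Among the members whose stretches are not printed, RUNX letters stood before Nkg7, Lamp1, Srgn, Gzmm and Gzmc. T-box letters stood before Nkg7 and Gzmm.

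The order of the members was compared per length. Nkg7 ranked first among the 10 members in each of the 10 libraries and between the 10th and the 30th of all genes in Ag, with a level per length of 3710 ± 726 for Ag against 3603 ± 204 for Ag+Costim (both SD, n = 5). Gzmc ranked last in every library. In Ag+Costim the order was Nkg7, Gzmb, Ctsw, Srgn, Gzma, Gzmk, Lamp1, Prf1, Gzmm and Gzmc. Within libraries Nkg7 exceeded Gzmb by 2.76 ± 0.59 and Gzmk exceeded Lamp1 by 1.94 ± 0.65 (log2 differences of levels per length, mean ± SD, n = 5), each in 5 of 5 libraries.

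Not all neighbours were distinct. In Ag+Costim, Gzmb and Ctsw (0.10 ± 0.67), Srgn and Gzma (0.35 ± 0.46), Gzma and Gzmk (0.16 ± 0.25), Lamp1 and Prf1 (0.51 ± 0.52) and Prf1 and Gzmm (0.09 ± 0.24) did not differ beyond the spread between libraries, as log2 differences of levels per length. Ctsw exceeded Srgn in each of the 10 libraries. The Ctsw level includes transcripts annotated with a retained intron, described below, which held 56.3 to 72.2% of its counts. Without them Ctsw stood at 121 to 250 CPM, against 193 to 341 CPM for Srgn. The order per length without them was not computed. In Ag the order began with Nkg7, Ctsw and Srgn, because Gzmb ranked 7th and 6th of the 10 members in Ag replicates 1 and 4 and 2nd in the other Ag libraries. Prf1 ranked 4th in Ag replicates 1 and 4 and 8th in the other Ag libraries. Without those libraries, Ag began with Nkg7, Gzmb and Ctsw, as Ag+Costim did.

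**Figure D3:**
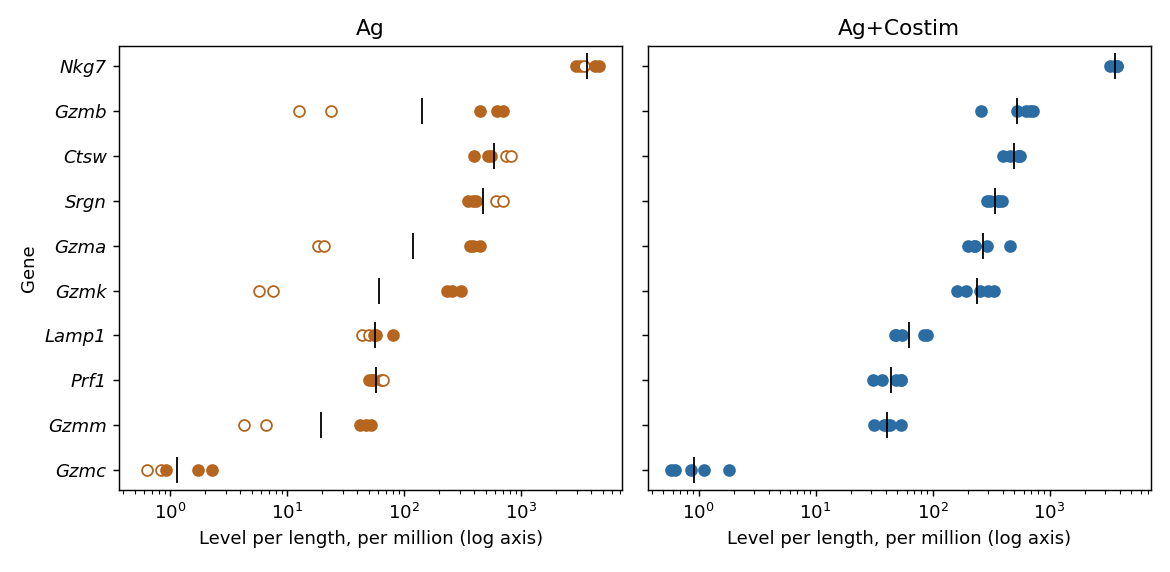
Level per length (log axis) of each member in the Ag and Ag+Costim libraries, with genes sorted by Ag+Costim, ticks at the geometric mean and Ag replicates 1 and 4 as open circles. Gzmb, Gzma, Gzmk and Gzmm spread widely in Ag, where Nkg7 stayed highest in every library.

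To ask whether costimulation changed transcript levels of the granule genes beyond antigen alone, the groups were compared with edgeR's quasi-likelihood test, adjusted by the Benjamini-Hochberg method (BH) over 24262 genes. None of the 10 members was called, against 0% of all genes called (0 of 24262), and 0 members but 18.6% of all genes (4501) had an unadjusted p under 0.05. The log2 fold changes of Ag+Costim over Ag were 0.54 ± 0.96 for Gzmb (SE, BH 0.728), 0.52 ± 0.97 for Gzmk (BH 0.744), 0.41 ± 0.69 for Gzmm (BH 0.715) and 0.11 ± 0.86 for Gzma (BH 0.943). Each was smaller than its SE. Srgn (-0.32 ± 0.17, BH 0.303) and Prf1 (-0.20 ± 0.19, BH 0.512) had negative values. Both values moved with scaling, to -0.60 and -0.45 with total counts and to -0.56 and -0.43 with upper quartile factors. Under those scalings both had an unadjusted p under 0.05 in edgeR, as did 5465 and 5103 of all 24262 genes. Neither Srgn nor Prf1 was called there. Nkg7 (0.03 ± 0.28, BH 0.961), Lamp1 (0.26 ± 0.31, BH 0.594), Ctsw (-0.12 ± 0.20, BH 0.725) and Gzmc (-0.25 ± 0.66, BH 0.819) completed the set. The median over members was 0.07, against -0.32 over all 24262 genes tested. Over genes of at least 10 CPM it was 0.24, a shift that was 0.00 with total-count scaling.

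Without Ag replicates 1 and 4 the values of 4 granzymes took the opposite sign, at -0.17 ± 0.36 for Gzmb, -0.19 ± 0.29 for Gzmk, -0.25 ± 0.21 for Gzmm and -0.58 ± 0.29 for Gzma (log2 fold change ± SE). Gzmc kept its negative sign, at -0.69 ± 0.70. Gzma, nearest to 0 among the granzymes over all libraries (0.11), also turned negative in other fits. It was -0.193 without Ag replicate 1, -0.187 without Ag replicate 4, -0.135 without Ag+Costim replicate 2 and -0.045 with upper quartile factors. Without Ag replicates 1 and 4 no member was called, nor was any other gene (0%). The naive T cell and dividing cell genes given above differed in the same libraries, and their part in the member values was not tested.

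**Figure D4:**
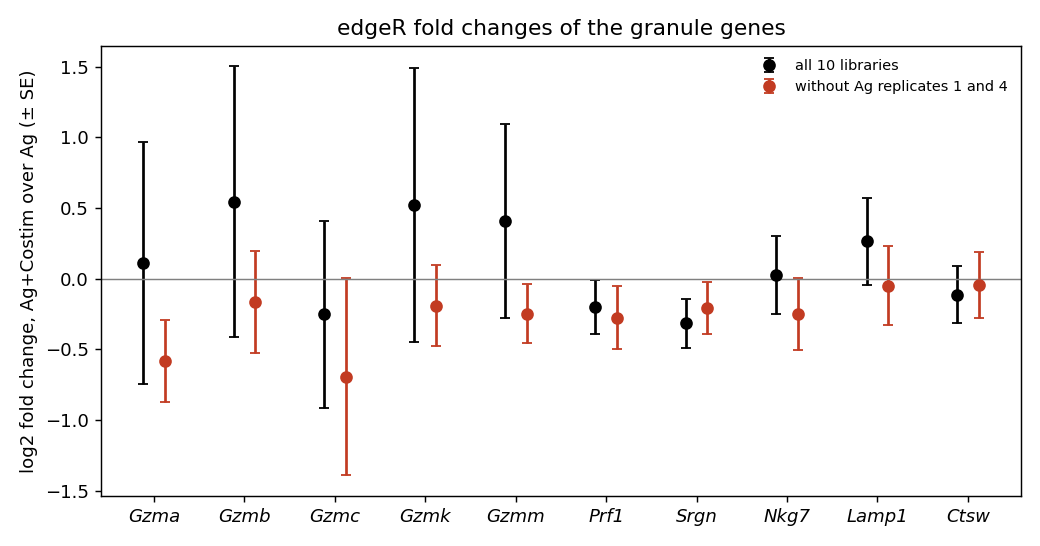
edgeR log2 fold changes of the 10 members, Ag+Costim over Ag, with SE as bars, over all 10 libraries (black) and without Ag replicates 1 and 4 (red). Gzmb moved from 0.54 to -0.17 and Gzma from 0.11 to -0.58, while Prf1 stayed near -0.20 and -0.28.

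Other tools gave other counts. DESeq2 called Srgn lower (log2 fold change -0.45 ± 0.16, BH 0.0457), where 14.3% of all genes with an adjusted p were called. limma voom with a weight per library called 7 members, where 52.2% of all genes were called, and Gzmb reached a log2 fold change of 4.93 ± 0.64 (BH 6.25e-05). It weighted Ag replicates 1 and 4 at 1.42 and 2 and Ag replicates 2 and 5 at 0.0986 and 0.0656, so that the Ag mean in that fit lay near the libraries with little granzyme. The members it called higher were Gzma, Gzmb, Gzmk, Gzmm, Nkg7 and Lamp1, and the member it called lower was Srgn.

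The groups overlapped for all of the 10 members, where 4.48% of genes were higher and 1.13% lower in Ag+Costim without overlap. This background moved with scaling. TMM gave 1086 genes higher and 273 lower of 24262, whereas upper quartile factors reversed the balance, to 360 higher and 553 lower. DESeq2 size factors gave 698 and 372, and scaling to the total 670 and 450. The 4.48% set beside pathway genes below is the TMM value. Members without overlap stayed at 0 under each scaling. Without Ag replicates 1 and 4 no member was free of overlap either (6.92% of genes higher and 2.53% lower). Without Ag replicate 3, 1 member, Srgn, was lower in Ag+Costim without overlap, where 2.18% of all genes were.

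Markers of other cell types were present and not equal between libraries. The 6 genes of NK cells, which also carry granzymes and perforin, summed to 18.9 to 69.1 CPM in Ag, highest in Ag replicate 3, and to 9.88 to 26.9 CPM in Ag+Costim. Ncr1 was between 1.14 and 6.04 CPM with Ag and at most 0.885 CPM in Ag+Costim, where it was at 0 in replicate 2. The 6 genes of mast cells and basophils summed to at most 5.72 CPM, and Mcpt4 and Tpsb2 were at 0 in all Ag+Costim libraries. A list of 5 B cell genes summed to 643 to 1145 CPM with Ag and 513 to 760 CPM in Ag+Costim, mostly Ighm. Cd79a was 23.2, 93.3 and 32.6 CPM in Ag replicates 1, 3 and 4 and at most 5.57 CPM elsewhere. Between Ag replicates 2 and 3, Ighm (626 and 602 CPM) did not follow Ms4a1 (0.239 and 54.9 CPM) or Cd79a (2.44 and 93.3 CPM). The 4 erythroid genes reached 854 CPM in Ag replicate 3. The 5 myeloid genes summed to 47.9 to 114 CPM for Ag and 79.6 to 161 CPM for Ag+Costim, the 5 neutrophil genes to at most 37.4 CPM and the 3 CD4+ T cell genes to at most 11.4 CPM in any library. The part of these cells in the member values was not tested.

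Genes that act on or with the granule were read from a list of 65 genes, of which 61 were tested and 0 were called by edgeR. An unadjusted p under 0.05 was reached by 13 of them in edgeR, against 18.6% of all genes. DESeq2 called 6 of them, against 14.3% of all genes, and limma voom with library weights 42, against 52.2%. Genes named below as called by DESeq2 were named after their values had been seen. Of 2 granzyme activators, the dipeptidyl peptidase Ctsc, which removes the granzyme propeptide, had a mean of 239 ± 95.9 CPM for Ag against 305 ± 8.22 CPM for Ag+Costim (both SD, n = 5). Ctsh stood at 11 ± 7.47 and 4.41 ± 2.18 CPM. Neither passed edgeR's test (1, Ctsh, had an unadjusted p under 0.05), while DESeq2 called Ctsh lower (log2 fold change -1.48) and limma voom called both. Of 6 inhibitors edgeR called 0 (0 with an unadjusted p under 0.05), DESeq2 0 and limma voom 3. Serpinb9, which blocks granzyme B in the cell that makes it, stood at 34.6, 466, 298, 51.1 and 554 CPM in Ag replicates 1 to 5 and at 340 to 549 CPM in Ag+Costim, and so was low in the same libraries as Gzmb. Serpinb6b had 141 ± 84.5 and 166 ± 9.91 CPM, and Cst7, an inhibitor of cathepsins, 249 ± 89.2 and 230 ± 14 CPM.

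Of 10 granule cargo and membrane genes, edgeR called 0 (1, Ctsl, with an unadjusted p under 0.05), DESeq2 1, also Ctsl, and limma voom 5. The most abundant were the lysosomal protease Ctsd (1100 ± 352 CPM in Ag, 1160 ± 82.3 CPM in Ag+Costim), the calcium-binding chaperone Calr (607 ± 287 and 947 ± 140 CPM) and Ctsb (417 ± 100 and 444 ± 44.3 CPM). Of 19 genes of granule traffic and exocytosis, edgeR called 0 (4 with an unadjusted p under 0.05), DESeq2 1, which was Rab7, and limma voom 11. In this list 2 genes lay higher in Ag+Costim without overlap, as did 4.48% of all genes. Unc13d, which primes granules for fusion, stood at 180, 191, 183, 229 and 234 CPM with Ag and at 234, 247, 289, 283 and 281 CPM in Ag+Costim (log2 fold change 0.39 ± 0.14, BH 0.242). That value was 0.12 with total counts and 0.16 with upper quartile factors. Rab27a, which docks them, ranged from 35.3 to 66.9 CPM with Ag and from 68 to 87.4 CPM in Ag+Costim (0.56 ± 0.19, BH 0.237). Rab7 (226 ± 57.8 and 314 ± 6.68 CPM) and Rab11b (196 ± 45 and 213 ± 13.2 CPM) overlapped.

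Of 12 granzyme substrates edgeR called 0 (4 with an unadjusted p under 0.05), DESeq2 0 and limma voom 11. The log2 fold change in edgeR was above 0 for all 12, with a median of 0.56, or 0.20 without Ag replicates 1 and 4. Over all genes of at least 10 CPM the median was 0.24, or 0.15 without those libraries. In this list 1 gene, Parp1, a DNA repair enzyme, was higher in Ag+Costim without overlap, as were 4.48% of all genes. It stood at 73 to 204 CPM with Ag and 210 to 275 CPM in Ag+Costim (BH 0.245). Hmgb2 had 2270 ± 1770 and 3670 ± 224 CPM, Set 391 ± 215 and 654 ± 78.6 CPM, and Nme1 386 ± 284 and 513 ± 57.8 CPM. In Ag replicates 1 and 4 Hmgb2 was at 474 and 639 CPM and Set at 185 and 199 CPM, below every other library. The log2 fold change went from 0.69 to 0.11 for Hmgb2 and from 0.74 to 0.33 for Set without these libraries. Of 11 transcription factors of granule genes edgeR called 0 (3 with an unadjusted p under 0.05), DESeq2 3, which were Runx3, Irf4 and Bach2, and limma voom 10. Tbx21, the T-box factor of effector cells, stood at 74.7, 364, 250, 107 and 405 CPM with Ag and at 380 to 483 CPM in Ag+Costim, low in the same Ag libraries as the granzymes. Id2 had 281 ± 208 and 373 ± 37.5 CPM, and Hopx 174 ± 78.2 and 193 ± 18 CPM. Irf4, induced by receptor signaling, ranged from 7.95 to 20.6 CPM with Ag and from 25.5 to 38.5 CPM in Ag+Costim without overlap (0.86 ± 0.25, BH 0.201). It was the 1 factor of the list that lay higher without overlap, as did 4.48% of all genes.

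Genes alike in pattern were found by Pearson correlation of log2 CPM with Nkg7, Gzmb and Prf1 over the 10 libraries. They were sought among 8643 genes with a mean of at least 10 CPM after a pseudocount of 0.1 was added. As a description, r is given over the 8 libraries other than Ag replicates 1 and 4. For Gzmb the genes alike were Gzmk (r = 0.90), Scpep1 (0.84) and Cercam (0.82). For Nkg7 they were Itgb1bp1 (r = 0.9997), Dnajc15 (0.997) and Tmsb4x (0.99). For Prf1 they included Tex264 (0.82) and Zfp707 (0.80). Over the same 8 libraries Prf1 had r = 0.87 with Gzmk, 0.84 with Gzmm, 0.77 with Gzma, 0.69 with Gzmb and 0.32 with Gzmc. Between Gzma and Gzmb r was 0.65. These values come from shared libraries and shared scaling.

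Transcript usage was examined because the rule of the members names the transcript table as well. Gzmb and Gzmc have a single annotated transcript. Gzma-201 held 86.1 to 99.3% of the Gzma counts, and Gzma-202 the rest. Gzmk-202 held 54.9 ± 1.51% in Ag+Costim and Gzmk-201 37.9 ± 1.82%, beside Gzmk-203, annotated for nonsense-mediated decay, at 3.32 to 7.44% over all libraries. Gzmm-201 and Lamp1-201 held nearly all counts of their genes, with at least 98% and 99.7%. Prf1-202 held 88 ± 4.93% for Ag against 91.8 ± 1.21% for Ag+Costim (both SD, n = 5). Prf1-201, with the remainder, was highest in Ag replicate 3 at 20.3%. Srgn-201 held 81.5 to 89.2%, beside Srgn-204. Nkg7-201 held 84.4 to 87.8%, beside Nkg7-203 with 10.3 to 13.5%.

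Ctsw differed from the other members in that most of its counts lay on transcripts annotated with a retained intron. These held 63.3 ± 7.69% of the Ctsw counts for Ag against 61.6 ± 0.711% for Ag+Costim (both SD, n = 5), against a share of 2.25 to 5.56% over all protein-coding genes. Of 5384 protein-coding genes of at least 10 CPM with such a transcript, 42 had a higher mean share than Ctsw. The share was 72.2, 58.8, 58, 71.1 and 56.3% in Ag replicates 1 to 5, and thus highest in replicates 1 and 4, where Ctsw-203 held 24.7 and 24.3% against 10.1 to 16.1% elsewhere. The share over all protein-coding genes was also highest in these libraries, at 5.56 and 5.36%. Ctsw-202 held 44.6 to 46.6% in every library. The assignment to transcripts was estimated from unstranded reads in a gene that overlaps Fibp.

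**Figure D5:**
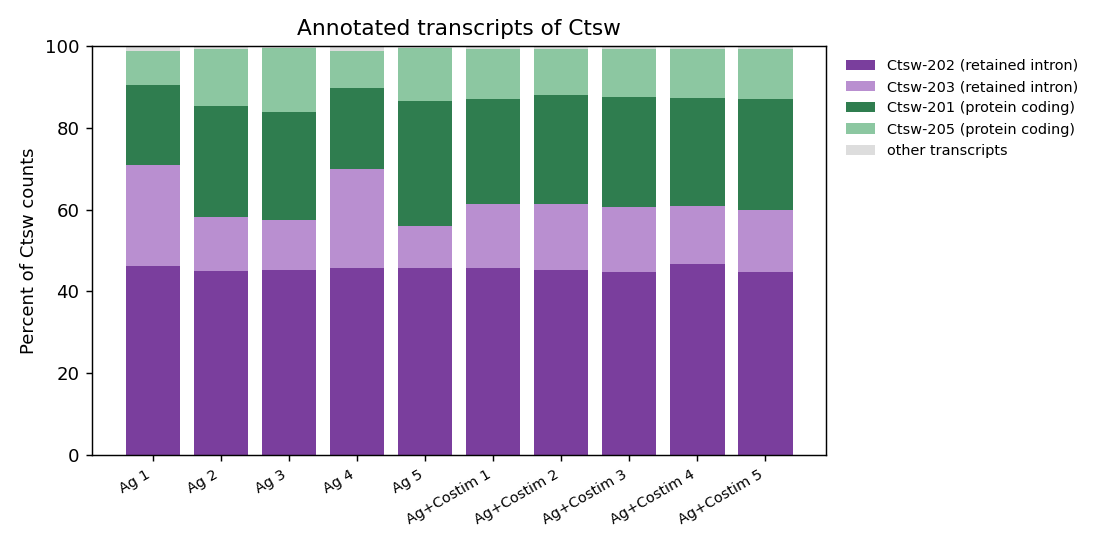
Percent of Ctsw counts on each annotated transcript, 1 bar per library. Ctsw-203, a retained intron transcript, held 24.7 and 24.3% in Ag replicates 1 and 4 and 10.1 to 16.1% in the other libraries, while Ctsw-202 held 44.6 to 46.6% in all of them.

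Of 7 members tested with edgeR's diffSpliceDGE, none passed a BH of 0.05 with a change of mean share over 0.1, where 0.527% of 10442 genes did (55). With a quasi-likelihood fit, added after that count had been seen, 0.278% of genes did (29) and no member. The largest change of a mean share among the members was 0.0377, for Prf1 (BH 0.975). The fraction spliced in (PSI), given once per group over its pooled libraries, covered 45 events of the 10 members, 35 of them core exons. PSI was 0.95 or more in both groups for 36 events, and no event differed by over 0.05, where 11.9% of all 138940 events did. The largest difference was 0.0318, at an exon of Gzmc (chr14:56232239-56232499, mm10). These pooled values have no replicate check.

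On mm10 the members lie at chr13:113093825-113100981 (Gzma, minus strand), chr14:56258838-56262260 (Gzmb, minus), chr14:56231441-56234656 (Gzmc, minus), chr13:113171608-113225908 (Gzmk, minus), chr10:79689020-79695261 (Gzmm, plus), chr10:61297833-61304680 (Prf1, plus), chr10:62493833-62527451 (Srgn, minus), chr7:43437073-43438249 (Nkg7, plus), chr8:13159161-13175338 (Lamp1, plus) and chr19:5465043-5468507 (Ctsw, minus).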

How the data were processed

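RNA of sorted CD8+ T cells was sequenced after amplification with an unstranded low-input kit. The authors aligned reads to mm10 with HISAT2 2.1.0 and estimated counts per gene and transcript with StringTie 2.1.0, per the labels and methods, and the deposited values are these estimated counts, as whole numbers. The deposited fraction spliced in was made by the authors with Whippet over pooled libraries, and its columns of group differences and probabilities were not used. Rows without a GENCODE M21 identifier (0.0458 to 0.308% of counts) were left out. Groups came from the labels, which do not say that libraries are separate animals, so p-values measure the spread between these libraries. Gene counts were filtered (filterByExpr), scaled by TMM and tested with edgeR 4.0.16 in R 4.3.3, with the SE taken as the log2 fold change over the square root of F. Transcripts with 10 counts in 5 libraries were tested with diffSpliceDGE. DESeq2 1.42.0, limma 3.58.1, other scalings, no filter, each library left out and a replicate block were alternatives. The fits were tested on simulated data, with a pass required only at a fixed dispersion (spread between libraries), not at the dispersion fitted here. The power to detect a change in the members is not given. All members were named, as were the 3 highest genes of each pathway part, any gene called or without overlap, and transcripts with 5% of a member's counts. Some marker and alike genes are not reported here. The members and lists were chosen with earlier results of these data known. Per-length orders used a pseudocount of 0.01 and correlations 0.1. Replicate numbers did not pair the libraries.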

Additional observations from a re-analysis of the deposited data

Results flagged for a closer look

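A library was looked at again where its gap to the nearest other library of its group exceeded 0.71 of the group's range, which chance gives in about 1 in 20 groups. The rule was applied to 54 groups. No member's CPM met it. It cannot flag libraries that lie low together, as Ag replicates 1 and 4 did for Gzma, Gzmb, Gzmk and Gzmm. Gzmm-201 held 98% of the Gzmm counts in Ag replicate 4, against 99.6 to 100% in the other Ag libraries (gap 0.8 of the range). Lamp1-201 held 99.7% of the Lamp1 counts in Ag replicate 1, with a gap of 0.903 of the range.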

How the results depend on the processing

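The edgeR counts of 0 called members, 0 pathway genes and 0 of all genes held under each scaling, without the filter, with each library left out and without Ag replicates 1 and 4. DESeq2 called 1 member, 6 pathway genes and 6214 of all genes, and limma voom with library weights called 7, 42 and 12670, the cause of which was not tested. Members without overlap numbered 0 to 1 with a library left out, the 1 being Srgn without Ag replicate 3. No member was called for transcript usage under any alternative, while the genes called numbered 10 to 357 with a library left out, 144 with limma's diffSplice and 256 without Ag replicates 1 and 4. Of 18 neighbour pairs in the orders per length, 16 to 18 kept their direction. These are 9 pairs per group, and leaving out a library can change only the pairs of its own group. Without Ag replicates 1 and 4, 7 of the 9 Ag pairs kept their direction.

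Replicate numbers did not pair the libraries: deviations of same-numbered libraries correlated at 0.23, 0.06, -0.14, -0.36 and 0.07. With replicate number as a block edgeR called 0 members, 0 pathway genes and 0 of all genes, and diffSpliceDGE 0 members.

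Log2 fold changes of named genes that were not called in the edgeR test took the opposite sign as follows, the cause not being tested. With upper quartile factors it was Gzma -0.045, Nkg7 -0.17, Ctsb -0.13, Ctsd -0.14, Rab11b -0.098 and Hopx -0.050. Without Ag replicates 1 and 4 it was Gzma -0.58, Gzmb -0.17, Gzmk -0.19, Gzmm -0.25, Nkg7 -0.25, Lamp1 -0.051, Serpinb6b -0.19, Ctsd -0.13, Nme1 -0.10, Id2 -0.14 and Hopx -0.14. With limma voom it was Gzmc 0.74, Gzmf 3.54 and Cst7 0.23. With no filter it was Gzmc 0.23, Prf1 0.11, Ctsw 0.15 and Cst7 0.17. With DESeq2 it was Nkg7 -0.071, Ctsb -0.027 and Ctsd -0.035. With DESeq2 size factors it was Nkg7 -0.075, Ctsb -0.034 and Ctsd -0.041. With total counts it was Nkg7 -0.15, Ctsb -0.15, Ctsd -0.14, Rab11b -0.12 and Hopx -0.034. With the replicate block it was Gzmf 2.42. With a library left out the ranges were Gzma -0.19 to 0.61, Nkg7 -0.10 to 0.30, Gzmf -0.87 to 1.11, Cst7 -0.23 to 0.065, Ctsb -0.019 to 0.19, Ctsd -0.035 to 0.22.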
